A study of Mus musculus with 486 samples.

Results

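Spi1 and Spib, which encode the Ets-family transcription factors PU.1 and Spi-B, were followed by their own RT-qPCR assays in single lymphoid progenitor cells, as 2 of the 47 gene assays of the panel. The cells came from the bone marrow of wild-type C57/Bl6 mice. Common lymphoid progenitors (CLP), taken as a whole population, can give rise to B, T and NK cells. They had been sorted as CLP Ly6d-Gfra2- (87 cells analysed), CLP Ly6d+Gfra2- (86 cells) and CLP Ly6d+Gfra2+ (82 cells). The potential of each of these sorts was not tested. FrA names the sort fraction of the earliest B-cell stage of the marrow. FrA cells had been sorted as FrA Gfra2- Bst1- (83 cells), FrA Gfra2+ Bst1- (83 cells) and FrA Gfra2+ Bst1+ (42 cells). The name is that of the sort, and whether each cell is of the B lineage was not tested. Ly6d, Gfra2 and Bst1 are cell-surface proteins used as sort markers. The labels name no animal or culture, so each group is 1 sample, cells are not replicates, and no p-value is given between groups of single cells.

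PU.1 and Spi-B bind closely related purine-rich DNA motifs and can act on the same target genes in B cells. PU.1 is made in stem cells, myeloid cells and lymphoid progenitors, where it takes part in the control of Il7r and Ebf1. Spi-B is made in B cells and in plasmacytoid dendritic cells, and it is a regulator of plasmacytoid dendritic cell development.

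The cycle threshold (Ct) falls as template rises, by 1 cycle for each doubling if the PCR is fully efficient. An assay was taken as detected at a Ct of at most 28, and 40 as no Ct recorded. The mean Ct of the 3 reference assays (Atp5a1 and Hprt are included) lay between 11.22 cycles in CLP Ly6d-Gfra2- and 12.62 cycles in FrA Gfra2- Bst1-. Cells detected on average 21.8 to 27.7 gene assays, depending on the group. Each of 5 groups was spread over 2 plates and FrA Gfra2+ Bst1+ over 1, and single cells of different groups never shared a plate, so plate and group cannot be told apart. Transcripts of Gfra2 were detected in 90.5% to 93.9% of cells in the Gfra2+ groups and in 2.30% to 13.3% in the Gfra2- groups.

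The share of cells with Spib varied more between the sorted groups than the share with Spi1. Spib was detected in 109 of 463 cells (23.5%) and Spi1 in 438 (94.6%). Spib was most widespread in FrA Gfra2- Bst1- cells, where 52 of 83 cells held it (62.7%, exact 95% interval 51.3 to 73). The share was 63.4% on one plate and 61.9% on the other. All intervals here cover counting error only.

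The next highest share of Spib was 38.1% in FrA Gfra2+ Bst1+ (16 of 42 cells, 23.6 to 54.4). FrA Gfra2+ Bst1- followed at 20.5% (17 of 83 cells; 26.2% and 14.6% on its plates). CLP Ly6d+Gfra2- held it in 19.8% (17 of 86 cells; 14.3% and 25.0%). These last 2 shares lay 0.714 points apart, less than the 11.6 and 10.7 points between plates of the same group.

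Spib was found in 7.32% of CLP Ly6d+Gfra2+ (6 of 82 cells; 7.5% and 7.14% on its plates). In CLP Ly6d-Gfra2- it was found in 1 of 87 cells (1.15%, 0.0291 to 6.24). On one plate of that group it was found in 0 of 42 cells, and 3 cells, or 7.14%, is the share that a count of 0 allows.

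**Figure D1:**
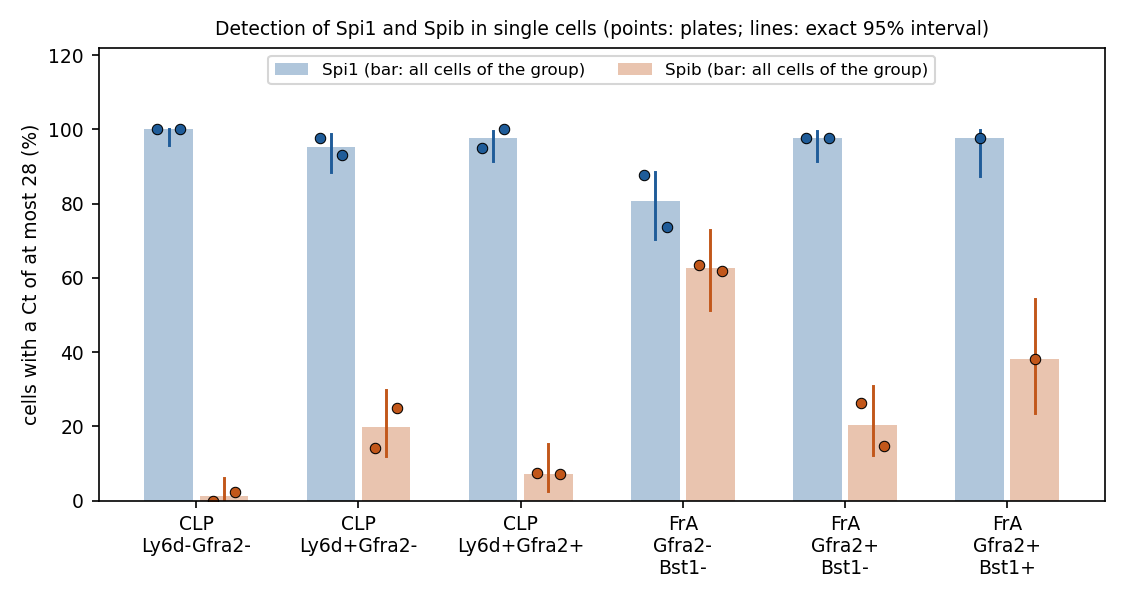
Share of single cells (vertical axis, percent) with Spi1 (blue) or Spib (orange) detected in each of the 6 sorted groups (horizontal axis). Bars are all cells of a group, points are plates and lines are exact 95% intervals; Spib runs from 1.15% to 62.7%, while Spi1 lies at 95.3% or above except in FrA Gfra2- Bst1- (80.7%).

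Differences in share were called when at least 20 percentage points wide and when the plates of the compared groups did not overlap. Among Bst1- FrA cells, Spib was lower in the Gfra2+ group by that rule, at 20.5% against 62.7% (-42.2 points, Newcombe 95% interval -54.2 to -27.6). Of the 45 assays counted, 4.44% were called lower in that comparison. Among Gfra2- cells, Spib was higher in FrA Gfra2- Bst1- than in CLP Ly6d+Gfra2- (42.9 points, 28.5 to 54.8). In that comparison 4.44% of assays were called higher. These comparisons share the FrA Gfra2- Bst1- cells.

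The other 4 differences in Spib were smaller than 20 points, although plates did not overlap in any of them. CLP Ly6d+Gfra2- exceeded CLP Ly6d-Gfra2- by 18.6 points (9.94 to 28.3), and FrA Gfra2+ Bst1+ exceeded FrA Gfra2+ Bst1- by 17.6 points (1.2 to 34.4). Each of these passed 20 points when 1 plate was left out, at 23.9 points without the plate of CLP Ly6d+Gfra2- with fewer Spib cells and 23.5 points without the plate of FrA Gfra2+ Bst1- with more. Without the other plate of these groups they fell to 13.1 and 11.9 points. The difference between Gfra2+ and Gfra2- cells within Ly6d+ CLP was -12.5 points (-22.8 to -1.98), and FrA Gfra2+ Bst1- exceeded CLP Ly6d+Gfra2+ by 13.2 points (2.54 to 23.8). These became -6.97 points without the CLP Ly6d+Gfra2- plate with more Spib cells and 7.32 points without the FrA Gfra2+ Bst1- plate with more. The rule called 4.44% of assays higher in the comparisons by Ly6d, by Bst1 and of Gfra2+ FrA with Gfra2+ CLP, and 2.22% lower in that by Gfra2 within CLP.

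Among detecting cells, Spib levels also stood highest in FrA Gfra2- Bst1-. There its Ct ran from 10.50 over a median of 13.08 to 17.10 cycles, with a mean of 13.17 ± 1.53 (SD over 52 cells) and plate means of 13.44 and 12.90. In CLP Ly6d+Gfra2- the lowest, median and highest Ct were 11.12, 15.35 and 16.95 (mean 14.82 ± 1.56, 17 cells). In CLP Ly6d+Gfra2+ they were 14.40, 15.21 and 16.14 (15.25 ± 0.57, 6 cells). The ranges overlapped, and the FrA Gfra2- Bst1- cells filled the end of more template.

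In FrA Gfra2+ Bst1- the Spib Ct values were 10.99, 15.18 and 18.42 (14.72 ± 1.59, 17 cells), and in FrA Gfra2+ Bst1+ they were 12.02, 14.85 and 17.03 (14.81 ± 1.44, 16 cells). The 1 Spib cell of CLP Ly6d-Gfra2- had a Ct of 15.96. At a limit of Ct 13, chosen after the values were seen, Spib was found in 25 of 83 FrA Gfra2- Bst1- cells (30.1%) and in 7 of the 380 cells of all other groups. Relative to each cell's mean reference Ct, Spib lay 0.56 cycles above the reference in FrA Gfra2- Bst1- and 2.52 to 4.23 cycles above it in the other groups. Levels of Spib between groups were not called, because fewer than 50% of cells held it in all groups but 1.

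**Figure D2:**
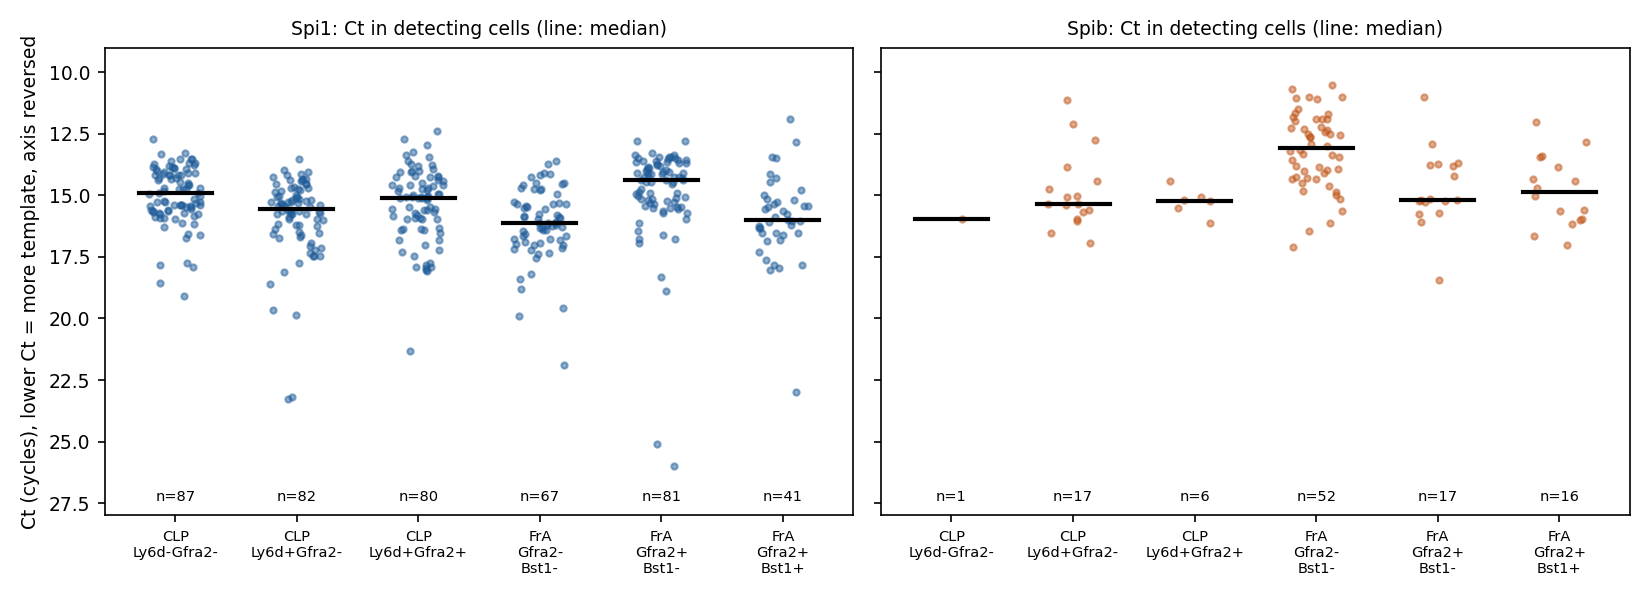
Ct in cycles (vertical axis, reversed, so more template is higher) of Spi1 (left, blue) and Spib (right, orange) in every single cell that detected it, by sorted group (horizontal axis), with the number of cells below. Black lines are medians; Spib has its median at 13.08 cycles in FrA Gfra2- Bst1- and at 14.85 to 15.96 cycles elsewhere, and the Spi1 medians lie closer together.

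Spi1 was detected in 87 of 87 CLP Ly6d-Gfra2- cells, 82 of 86 CLP Ly6d+Gfra2- cells (95.3%) and 80 of 82 CLP Ly6d+Gfra2+ cells (97.6%). It was detected in 81 of 83 FrA Gfra2+ Bst1- cells (97.6%) and 41 of 42 FrA Gfra2+ Bst1+ cells (97.6%). FrA Gfra2- Bst1- stood lower at 67 of 83 cells (80.7%; 87.8% and 73.8% on its plates). Of the 25 cells of the data set without a Spi1 Ct, 16 belonged to that group, and 13 of those 16 held Spib.

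No difference in the share of Spi1 reached 20 points with all plates, where 20.0% of assays were called higher in FrA Gfra2+ Bst1- than in FrA Gfra2- Bst1-. The largest were 16.9 points between those groups (7.64 to 26.8) and -14.6 points between FrA Gfra2- Bst1- and CLP Ly6d+Gfra2- (-24.8 to -4.90). In the second, 6.67% of assays were called lower. In the comparisons by Bst1 and of Gfra2+ FrA with Gfra2+ CLP, Spi1 differed by 0.0287 and 0.0294 points. In each of them 4.44% of assays were called higher and 2.22% lower. The 16.9 and -14.6 points passed the rule without the FrA Gfra2- Bst1- plate with the higher Spi1 share, becoming 23.8 and -21.5. Without the other plate of that group they were 9.79 and -7.54 points. With only the middle 50% of reference Ct kept they were 9.78 and -5.24.

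Among detecting cells, the mean Spi1 Ct was lowest in FrA Gfra2+ Bst1- (14.90 ± 2.05 cycles, plates 14.72 and 15.10), followed by CLP Ly6d-Gfra2- (15.01 ± 1.19) and CLP Ly6d+Gfra2+ (15.36 ± 1.5, plates 14.67 and 15.99). It was 15.89 ± 1.68 in CLP Ly6d+Gfra2-, 15.93 ± 1.77 in FrA Gfra2+ Bst1+ and 16.15 ± 1.47 in FrA Gfra2- Bst1- (plates 15.86 and 16.50). In this order, 4 of the 5 steps between neighbouring groups were 0.03 to 0.35 cycles, below the SD of 0.48 cycles between plates of a group. The step from CLP Ly6d+Gfra2+ to CLP Ly6d+Gfra2- was 0.53 cycles, and the plates of these groups overlapped. Relative to reference Ct the order changed: Spi1 lay 3.16 cycles above the reference in FrA Gfra2+ Bst1-, 3.44 in CLP Ly6d+Gfra2+, 3.61 in FrA Gfra2- Bst1-, 3.67 in CLP Ly6d+Gfra2-, 3.80 in CLP Ly6d-Gfra2- and 4.00 in FrA Gfra2+ Bst1+.

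Levels were called at a difference of at least 1 cycle with plates separated, for assays that at least 50% of cells of each group held. By that rule Spi1 was higher in FrA Gfra2+ Bst1- than in FrA Gfra2- Bst1- by 1.25 cycles, in a comparison where 36.4% of 22 assays were called higher. The reference assays were also 0.87 cycles apart in the same direction, and relative to them the Spi1 difference was 0.45 cycles and no longer called. It was also lost in cells from the middle 50% of reference Ct (0.81 cycles) and without the FrA Gfra2- Bst1- plate of higher Spi1 Ct (0.95 cycles). Spi1 was lower in FrA Gfra2+ Bst1+ than in FrA Gfra2+ Bst1- (-1.02 cycles), where 11.5% of 26 assays were called lower and the reference differed by -0.11 cycles. That call was lost relative to the reference assays (-0.84 cycles), in the middle 50% of reference Ct (-0.98 cycles), with cells lacking a Ct set to 28 (-0.995 cycles) and without the FrA Gfra2+ Bst1- plate of lower Spi1 Ct (-0.83 cycles).

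The other 4 differences in Spi1 level were not called. They were -0.88 cycles for Ly6d+ against Ly6d- cells among Gfra2- CLP, 0.53 cycles for Gfra2+ against Gfra2- cells among Ly6d+ CLP, 0.46 cycles for FrA against CLP among Gfra2+ cells and -0.26 cycles for FrA against CLP among Gfra2- cells, with a positive value for more Spi1 in the first named. In the first of these, the reference assays differed by -1.02 cycles, more than Spi1 itself, and 9.09% of assays were called lower. The second became 1.22 cycles without the CLP Ly6d+Gfra2+ plate of higher Spi1 Ct, and the third 1.09 cycles without the other plate of that group, both then past the rule. The first and the last passed it with cells lacking a Ct set to 28 (-1.44 and -1.98 cycles).

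Combined over plates, Spi1 differed little between cells with and without Spib, beside a wide spread over plates. On the 7 plates with at least 5 cells with and 5 cells without Spib, the Spi1 share in cells with Spib minus that in cells without it was -4.18 points (SD over plates 13.1), with 5 plates higher and 2 lower. The mean Spi1 Ct differed by 0.12 cycles (SD over plates 0.61), with 4 plates higher and 3 lower. It ran from -0.75 cycles on a plate of FrA Gfra2+ Bst1- to 0.93 cycles on a plate of FrA Gfra2- Bst1-. Both plates of FrA Gfra2- Bst1- are among the 7. In all groups but FrA Gfra2- Bst1-, at least 94.1% of cells with Spib and at least 95.7% of cells without it held Spi1. With nearly all cells holding Spi1, these shares leave little room for a difference.

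In FrA Gfra2- Bst1-, Spi1 was detected in 39 of 52 cells with Spib (75%) and in 28 of 31 cells without it (90.3%). The plates differed. On one, Spi1 was found in 23 of 26 cells with and 13 of 15 cells without Spib; on the other, in 16 of 26 and 15 of 16. Where Spi1 was detected, its Ct was 16.41 ± 1.47 in cells with Spib and 15.80 ± 1.42 in cells without it, 0.93 and 0.47 cycles higher on the respective plates. The mean reference Ct of these cells was 12.62 in both sets, and cells with Spib detected on average 19.8 assays against 23.5.

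Within plates, Ebf1, Pax5, Rag1, Rag2 and Mpo were detected in smaller shares of the cells with Spib than of the cells without it. Over the 7 plates combined, 4 of Gfra2- and 3 of Gfra2+ groups (Mantel-Haenszel difference), Ebf1, a transcription factor needed for B-lineage commitment, differed by -29.7 points between cells with and without Spib (lower on 6 of 7 plates). Rag1 and Rag2, the V(D)J recombinase genes, differed by -19.8 points (lower on 6 plates) and -15.1 points (lower on 5). Pax5, which maintains B-cell identity, differed by -13.7 points (lower on 6). Mpo, the myeloperoxidase of granulocytes, differed by -20.2 points (lower on 6). These are the 5 lowest of 44 other assays, of which 16 were higher, 20 lower and 8 equal, with a median of 0 points.

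The 5 assays most above 0 were smaller in size. Bcl2, which protects cells from apoptosis, was detected 14.2 points more often in cells with Spib and was higher on 7 of 7 plates; in the middle 50% of reference Ct the difference was 24.7 points. Id3, an inhibitor of E-protein transcription factors, was 11.4 points higher (6 of 7 plates; 6.79 points in the middle 50% of reference Ct), and the pro-apoptotic Bad 10.6 points higher (5 of 7 plates). Igll1, a component of the surrogate light chain of the pre-B cell receptor, was 9.74 points higher (5 of 7 plates). Pou2af1, a B-cell coactivator of octamer-binding factors, was 9.47 points higher (3 plates higher, 3 lower, 1 equal), and -4.57 points in FrA Gfra2- Bst1- alone. In the same comparison the reference Ct differed by 0.12 cycles and the number of assays by -1.3.

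**Figure D3:**
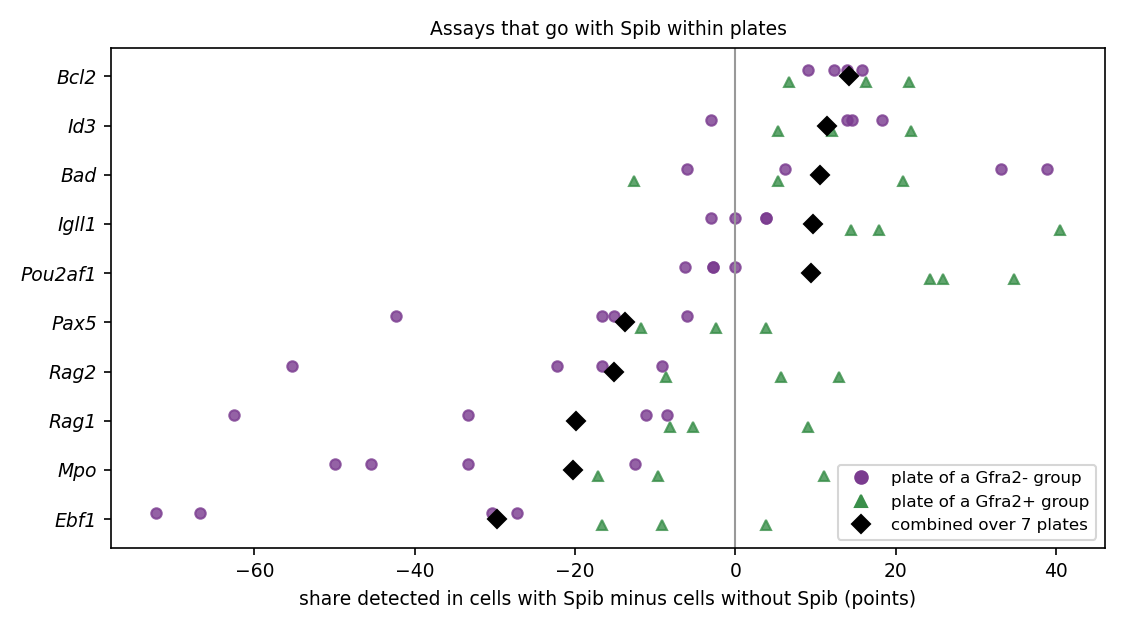
Difference in the share of cells detecting an assay (horizontal axis, percentage points) between cells with and without Spib, for the 5 assays furthest in each direction (vertical axis). Circles are 4 plates of Gfra2- groups, triangles 3 plates of Gfra2+ groups and diamonds the value combined over the 7 plates; for Ebf1 the combined value is -29.7 points, and for Igll1 and Pou2af1 the triangles lie to the right of the circles.

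FrA Gfra2- Bst1- held the most Spib cells. Ebf1 there was detected in 19 of 52 cells with Spib (36.5%) and in 26 of 31 cells without it (83.9%), a difference of -47.3 points (-62.1 to -26.0), with -27.2 on one plate and -66.8 on the other. Of the 83 cells, 33 held Spib without Ebf1, 26 Ebf1 without Spib, 19 held both and 5 neither. Among the Spib cells, those that also held Ebf1 had the higher Spib Ct, with a mean Spib Ct of 14.20 ± 1.54 (19 cells) against 12.58 ± 1.19 (33 cells). That difference was 1.25 cycles on one plate and 1.98 on the other.

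The recombination genes went the same way. Rag1 was detected in 3 of 52 cells with Spib (5.77%) and in 13 of 31 without it (41.9%), but the plates gave -8.46 and -62.5 points. Rag2 was found in 44.2% and 80.6%. Dntt, the template-independent polymerase that adds bases at V(D)J joints, was found in 38 of 52 cells (73.1%) and in 31 of 31. All 3 assays of the recombination list were at least 20 points lower in Spib cells with the same sign on both plates. Rag1 did not meet this rule on the first plate alone, in the middle 50% of reference Ct or in cells with no Gfra2 Ct. In the last of these, with the cells of both plates counted together, it was found in 3 of 51 cells with Spib and 7 of 21 without it (-27.5 points). Rag2 did not meet the rule on the first plate alone (-16.7 points, against -55.3 on the other).

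By that rule, chosen after the values were seen, 10 of 44 assays (22.7%) were lower in FrA Gfra2- Bst1- cells with Spib, and 0 (0%) were higher. Beside Ebf1, Rag1, Rag2, Dntt, Pax5 and Mpo they were Bcl2l1, which encodes the survival protein Bcl-xL (21.2% against 64.5%), Il2rb (7.69% against 41.9%, -55.1 and -14.9 points on the plates), Id2 (26.9% against 51.6%) and Bach1 (69.2% against 90.3%). The B-cell progenitor list has 5 members on the panel, and Spib cells detected on average 0.54 of them against 1.32 in cells without Spib. Of that list only Ebf1 and Pax5 met the rule, and Igll1 was 3.85 points higher. Of the 5 assays of the NK and innate lymphoid list, which holds Il2rb, Id2, Nfil3, Gata3 and Klrb1c, Spib cells detected 0.83 against 1.74. Over all gene assays but Spib, they detected 19.8 against 23.5. Mpo was found in 0 of 52 Spib cells, a count that allows 5.77%, and in 7 of 31 others. Cebpa, also of the granulocyte-monocyte list, was found in 0 of 52 Spib cells but in only 2 of 31 others, both on the same plate. No gene of the plasmacytoid dendritic list was on the panel.

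Restricting the cells changed which assays met that rule. In the cells from the middle 50% of reference Ct (28 with and 14 without Spib), 7 assays were lower, of which 4 were among the 10. Bach1, Id2, Il2rb, Mpo, Pax5 and Rag1 no longer met the rule there. One plate alone gave 9 assays and the other 8, each sharing 7 with the 10. The first lacked Pax5, Rag1 and Rag2, and the other Bach1, Il2rb and Mpo. Transcripts of the sort gene Gfra2 were found in 1 of 52 Spib cells and 10 of 31 others. In the cells with no Gfra2 Ct, 9 assays were lower, 8 of them shared, and Pax5 and Rag1 no longer met the rule. Ebf1 was found there in 18 of 51 cells with Spib (35.3%) against 16 of 21 (76.2%).

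CLP Ly6d+Gfra2- gave like values for Ebf1 on separate plates. Ebf1 was found in 6 of 17 cells with Spib (35.3%) and in 57 of 69 without it (82.6%), -47.3 points (-66.7 to -21.6), with -72.2 on one plate and -30.3 on the other. Mpo was found in 3 of 17 and 45 of 69 cells (-47.6 points, -62.9 to -21.4; plates -50 and -45.5) and Rag1 in 2 of 17 and 27 of 69 (-27.4 points, -41.9 to -2.41; plates -11.1 and -33.3). Kit, a growth factor receptor of early progenitors, was found in 10 of 17 and in 58 of 69 (-25.2 points, -49.0 to -3.08), which came mostly from 1 plate (-63.9 points, against -6.06 on the other). Il2rb went the other way from FrA Gfra2- Bst1-, at 5 of 17 cells with Spib and 7 of 69 without it (19.3 points, 0.623 to 43.5). In the cells of this group with no Gfra2 Ct, Ebf1 was found in 5 of 16 and 50 of 62.

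In the Gfra2+ FrA groups, Spib instead lay in cells that nearly all held Ebf1. In FrA Gfra2+ Bst1-, Ebf1 was found in 15 of 17 cells with Spib and in 66 of 66 without it, Pax5 in 14 of 17 and 59 of 66, and Rag1 in 14 of 17 and 53 of 66. Igll1 was found in 13 of 17 cells with Spib (76.5%) and in 32 of 66 without it (48.5%), 28.0 points apart (1.48 to 46.2), and Pou2af1 gave the same counts. Bcl2l1, lower in the Spib cells of FrA Gfra2- Bst1-, was found in 14 of 17 Spib cells here and in 35 of 66 others (29.3 points, 3.25 to 45.8).

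In FrA Gfra2+ Bst1+, Ebf1 and Pax5 were each found in 16 of 16 cells with Spib and 25 of 26 without it. Pou2af1 was found in 14 of 16 and 16 of 26 (26.0 points, -2.51 to 47) and Igll1 in 14 of 16 and 19 of 26 (14.4 points, -12.6 to 35.6). In CLP Ly6d+Gfra2+, all 6 Spib cells and all 76 others held Ebf1. Whether these co-detections differ between groups was not tested, since each group is 1 sample.

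**Figure D4:**
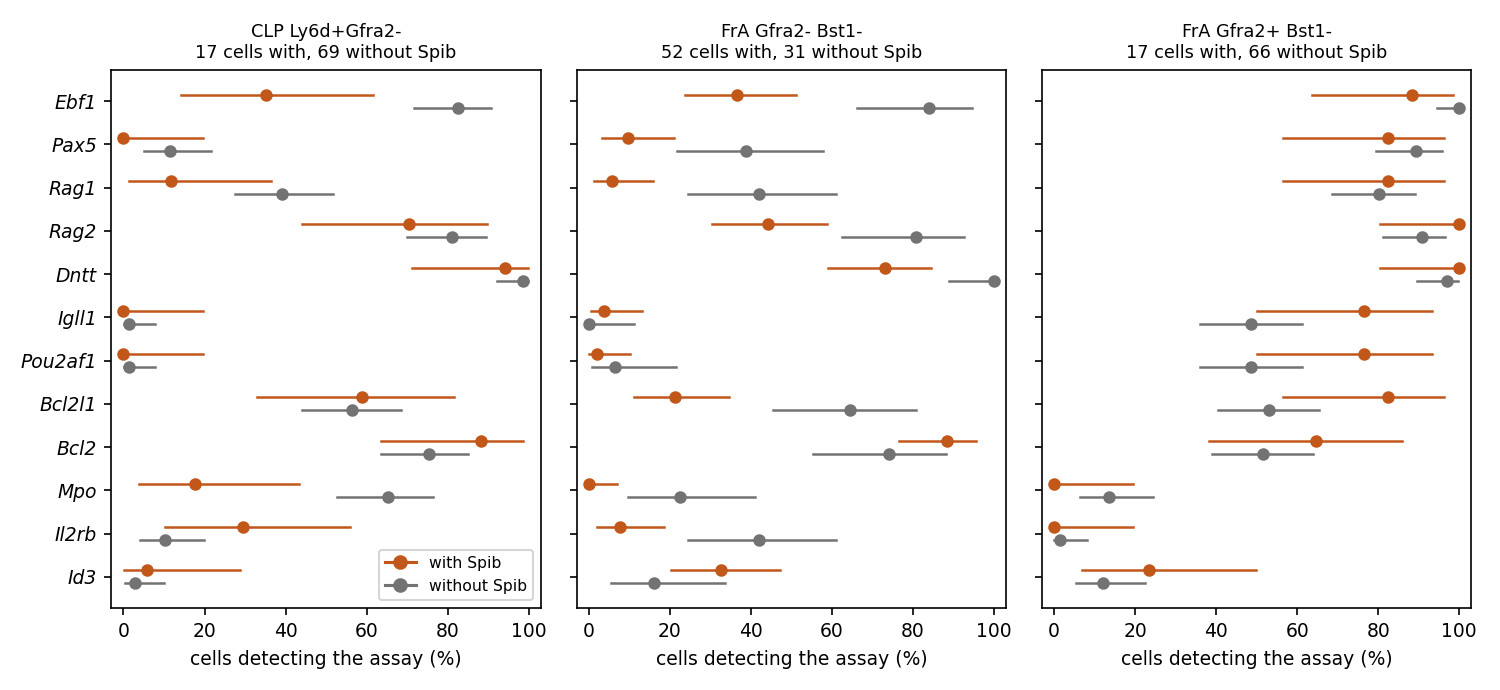
Share of cells detecting each of 12 assays (horizontal axis, percent) among cells with Spib (orange) and without Spib (grey) in CLP Ly6d+Gfra2-, FrA Gfra2- Bst1- and FrA Gfra2+ Bst1- (panels). Points are shares over all cells of the set and lines exact 95% intervals; Ebf1 lies at 35.3% and 36.5% in Spib cells of the first and second panels and at 88.2% in the third.

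Of the partners and textbook targets of PU.1 and Spi-B, 5 of 17 were matched by name on the panel. The list holds Ptprc, and the assay named PTPCR (0 points over the 7 plates) was not counted as that gene. Over the 7 plates, 2 of the 5 matched assays were higher, 2 lower and 1 equal in cells with Spib. Their median was 0 points, beside 0 over all 44 assays. Il7r, which encodes the receptor for a growth factor of lymphoid progenitors, was found in 52 of 52 Spib cells and 31 of 31 others in FrA Gfra2- Bst1-. Bcl11a, a transcription factor of B-cell and plasmacytoid dendritic cell development, was found in every cell of both sets there, with a mean Ct of 12.70 in Spib cells and 13.44 in others, -0.14 cycles on one plate and -1.31 on the other. The panel held 8 transcription factors of the B lineage, of which 4 were higher, 2 lower and 2 equal over the 7 plates.

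Across the 11 plates, Spearman's rho with the share of Spib was highest for Id3 (0.91), Bach2 (0.64), Lck (0.48) and Pax5 (0.45). It was lowest for Dntt (-0.90), Mpo (-0.89) and Spi1 itself (-0.77). Pax5 did not follow Spib to its highest shares. It was found in 17.1% and 23.8% of cells on the FrA Gfra2- Bst1- plates, against 85.4% to 97.6% on the Gfra2+ FrA plates. Within plates, Pax5 was lower in cells with Spib (-13.7 points). Lck spanned 45.2% to 80.5% over plates and stood at 47.6% on the FrA Gfra2+ Bst1+ plate, where Spib was 38.1%. Of the 27 assays whose shares spanned at least 10 points, 14 had a rho above 0 and 13 below. Over the 6 groups in place of plates, rho between Spib and Spi1 was -0.49. Plates of a group share their sort gate and are not independent, so these values are descriptions.

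No assay followed the level of Spi1 closely. After each plate's fitted line on reference Ct was removed, Pearson's r with Spi1 Ct over cells was highest for Notch1 (0.22 over 430 cells), the assay named PTPCR (0.20), Ikzf1 (0.16) and Bcl11a (0.13). It was lowest for Bad (-0.08) and Pou2af1 (-0.05), and the median over 25 assays was 0.07. Spi1 Ct and reference Ct within plates had an r of 0.31 over 438 cells. Correlations of this size between single-cell Ct values are given as values and not as relations.

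Wells of 10 and 20 cells, 1 of each on 10 plates, checked how the assays followed cell number. Spi1 had a mean Ct of 12.46 ± 1.1 in the 10-cell wells and 11.39 ± 1.3 in the 20-cell wells (SD over 10 wells). It was lower in the 20-cell well on 10 of 10 plates, by -1.08 ± 0.55 cycles. The exact two-sided sign-flip permutation test over plates gave p = 0.00195, the smallest that 10 plates allow, and a Benjamini-Hochberg adjusted p of 0.00781 over 24 assays. Of these assays, 95.8% were lower at an adjusted p of at most 0.05.

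Spib was found in 8 of 10 wells of 10 cells and 7 of 10 wells of 20 cells. The plates of FrA Gfra2- Bst1- gave 11.03 and 10.86 cycles at 10 cells and 8.81 and 9.98 at 20 cells, the lowest of all plates at both sizes. The plates of FrA Gfra2+ Bst1- gave 13.65 and 13.08 at 10 cells and 14.40 and 12.96 at 20 cells. Those of CLP Ly6d+Gfra2- gave 13.12 and 15.41 at 10 cells and 13.85 and 14.25 at 20 cells. From 10 to 20 cells, the Spib Ct fell on 5 of the 8 plates with a Ct, rose on 2 and was lost on 1. In such pools, fewer cells with a transcript and less of it per cell cannot be told apart.

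Of the plates of CLP Ly6d+Gfra2+, 1 gave 16.79 and 16.26 cycles and the other no Ct at either size. Of those of CLP Ly6d-Gfra2-, 1 gave 14.95 at 10 cells and no Ct at 20 cells, and the other no Ct at either size. The order of plates by Spi1 was different, with the FrA Gfra2- Bst1- wells highest in Ct at 13.52 and 14.46 for 10 cells and 12.16 and 14.26 for 20 cells.

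**Figure D5:**
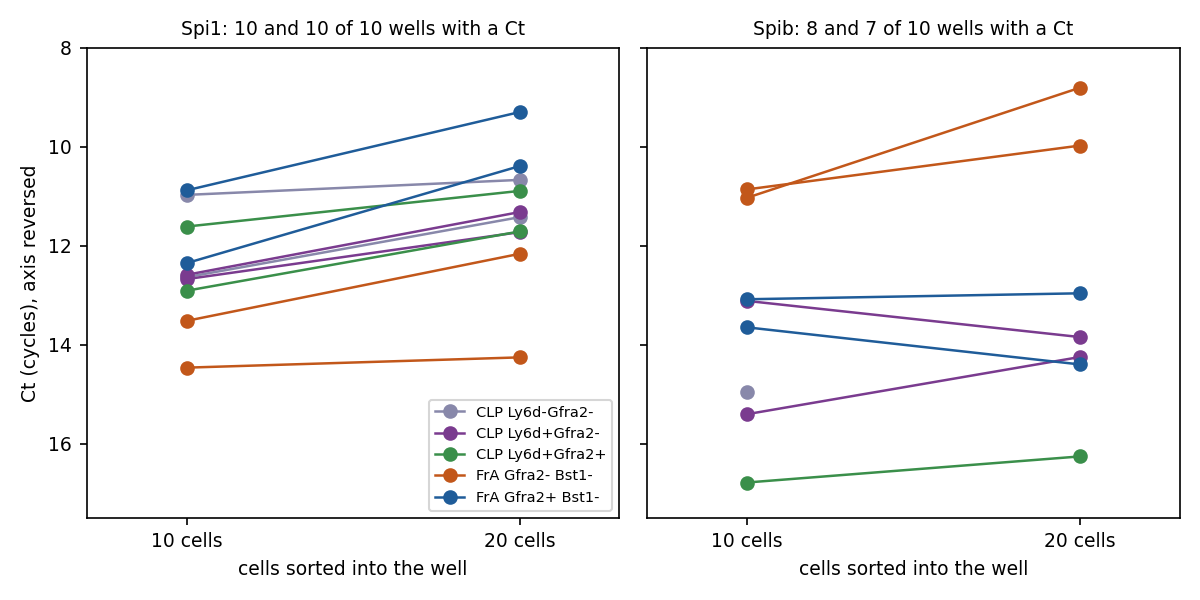
Ct in cycles (vertical axis, reversed) of Spi1 (left) and Spib (right) in wells of 10 and 20 sorted cells (horizontal axis), coloured by the sorted group of the plate. Lines join the wells of 1 plate and wells with no Ct are not drawn; Spi1 falls from 12.46 to 11.39 cycles on average, and the wells of FrA Gfra2- Bst1- plates have the least Spi1 and the most Spib.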

How the data were processed

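Single cells and small pools had been sorted into wells, pre-amplified and read with TaqMan assays on a microfluidic qPCR chip (BioMark). The deposited values are Ct values, per the labels' protocols; no label names the software or a normalisation (not given in the sources used here). In all, 48 assays (47 genes and a spike-in) were deposited for 486 wells on 11 plates: 464 single cells, 10 wells of 10 cells, 10 of 20 cells and 2 unassigned wells. Cells needed at least 2 of 3 reference assays, which left out 1. The sort genes Gfra2 and Bst1 and the spike-in were left out of counts of assays.

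Shares have exact (Clopper-Pearson) 95% intervals, differences Newcombe intervals, and a count of 0 allows 3 cells. Within-plate differences were combined over plates by the Mantel-Haenszel method. Pools were compared by an exact sign-flip permutation test over plates. That 1 well of each size on a plate is a pair comes from the plate numbers in the labels.

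Named assays were the 5 furthest in each direction with Spib within plates, 4 highest and 3 lowest across plates, 4 highest and 2 lowest with Spi1 level (at least 100 cells), and members of 9 lists. Bcl2l1 and Bach1 were picked after values were seen. The members and lists were chosen with earlier results of these data known. Alternatives covered the detection limit, cell filter, reference scaling, each plate left out and cell subsets. Scripts were tested on simulated data and ran in Python 3.11 with numpy, scipy and pandas. The files used hold no primer or probe sequences, so no sequence is shown.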

Additional observations from a re-analysis of the deposited data

Results flagged for a closer look

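On the plate of FrA Gfra2- Bst1- cells with the lower Spi1 share, 2 wells have titles of controls lacking reverse transcriptase, whereas their descriptions name them as cells, and both were kept out of all comparisons. The well at position 36 gave a Spi1 Ct of 16.81 and a Spib Ct of 16.74 cycles, with 25 gene assays detected and a mean reference Ct of 12.41. The well at position 30 gave a Spi1 Ct of 15.72 and no Spib Ct, with 26 gene assays and a reference Ct of 11.65. Signal in wells so titled is what drew attention to them, and which of the 2 labels holds was not tested. No other wells titled in this way were analysed here.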

How the results depend on the processing

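Of 260 recomputed values for 49 results, 17 moved past the limit set for their kind of result and 1 weakened. Calls changed in 15, of which 7 were lost and 8 gained, 11 of them for Spi1 levels. For shares the limit was the counting interval of the difference, which is wide. For Spi1 levels and differences within plates it was an SD over plates. Correlations had a fixed step and counts a fixed ratio, neither of them a measured spread. Relative to the reference assays, Ly6d+ against Ly6d- CLP turned from -0.88 to 0.12 cycles and Gfra2+ against Gfra2- FrA became 0.45. With cells without a Ct set to 28, these became -1.44 and 3.22, and FrA against CLP among Gfra2- cells -1.98; in the middle 50% of reference Ct the first was -0.31. Medians gave 1.74 for Gfra2+ against Gfra2- FrA and -1.61 for Bst1+ against Bst1- FrA. Leaving out plates of CLP Ly6d+Gfra2+ (plate 1, then plate 10) gave -0.10 and 1.22 against CLP Ly6d+Gfra2-, and 1.09 and -0.24 for FrA against CLP among Gfra2+ cells. No Bst1 value is possible without plate 11. In FrA Gfra2- Bst1-, 1 assay was higher in Spib cells on plate 8 alone and 1 in the middle 50% of reference Ct, against 0. The cause of these shifts was not tested.

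With no replicate block, so without pairing wells by plate, Spi1 in 20-cell minus 10-cell wells stayed at -1.08 cycles, with an adjusted p of 0.0823 in the permutation test. Leaving out each plate gave -1.17 to -0.98 cycles (highest adjusted p 0.0156, exact permutation test). No paired analysis was possible for the sorted groups because the cell numbers in the labels only name wells on a plate and each group is 1 sample.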
